A study of Zea mays with 6 samples.

Results

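MYB transcription factors were followed in root tips of the maize cultivar Chang 7-2 that had or had not been exposed to NaCl. Members are the transcripts whose deposited KEGG Orthology annotation contains K09422, the entry for plant MYB proto-oncogene proteins, and 164 transcripts of 155 genes met this rule among 48312 transcripts of 43006 genes. K09422 was the entry ranked first for 161 of them. The other 3 had another first entry, which for 2 of them was a telomeric repeat-binding factor. The annotation decided membership, so that no level or ratio compared below entered the rule. The deposited table held only transcripts with reads in at least 1 library.

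MYB proteins bind DNA through repeats of a helix-turn-helix domain named after the animal oncogene Myb. In plants the family expanded greatly, and its largest class carries a pair of such repeats (R2R3-MYB). Members of that class switch on or repress anthocyanin, flavonol and lignin genes, shape root hairs and other epidermal cells, and take part in the responses to abscisic acid, drought and salinity. Proteins with a single MYB repeat include clock components and, in maize, the single MYB histone (Smh) proteins that bind telomeric DNA.

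RNA-Seq libraries came from the 1 cm tips of primary roots (PR), crown roots (CR) and seminal roots (SR). Plants stood in nutrient solution with 100 mM NaCl (PR-salt, CR-salt and SR-salt) or with 0 mM NaCl (PR, CR and SR) for 24 h. PR were treated at 3 days, SR at 7 days and CR at 15 days after germination, so that root type and plant age cannot be told apart. A library held the RNA of 10 to 15 pooled roots, and although the labels mention biological replicates there was 1 library per condition, 6 in all, so that no value has a replicate error. The median library had 2549512 counted reads, the deepest had 1.07 times as many as the shallowest, and abundance is given as RPKM, reads per kilobase of transcript, scaled to the library's counted reads. In bulk RNA, fewer cells of a type and less RNA per cell cannot be told apart. Of the marker lists, 27 transcripts of dividing cells (histone H4, PCNA, MCM2 and cyclin B) were well represented, with summed levels of 889 RPKM in PR-salt and 1124 RPKM in PR, 914 RPKM in CR-salt and 1145 RPKM in CR, and 1092 RPKM in SR-salt and 1409 RPKM in SR. These sums, most of which is histone H4, were lower under salt in all 3 root types, although none of the 27 passed the test on reads described below. In CR and SR each of the 4 kinds of marker was lower under salt. In PR histone H4 and PCNA were lower, but cyclin B had 59.6 RPKM in PR-salt against 47.3 RPKM in PR and MCM2 had 11.5 against 7.9 RPKM. Of 8 green tissue markers, the RuBisCO small subunit stayed between 2.2 and 6.16 RPKM, while chlorophyll a/b binding protein LHCB1 reached 112 RPKM in PR-salt.

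Most MYB transcripts were rare. The median of their mean levels over the 6 libraries was 2.63 RPKM, against 2.46 RPKM over all transcripts. Of the 164, 58 had a mean under 1 RPKM, 47 reached 10 RPKM and 9 reached 50 RPKM. Reads were present in all 6 libraries for 102 members, while 51 had at most 3 reads in every library, and 12 had at least 100 reads in every library. The family took 4867 reads in PR-salt and 4768 in PR, 5056 in CR-salt and 4993 in CR, and 5206 in SR-salt and 5271 in SR. Its summed level was 1867 RPKM in PR-salt against 1920 RPKM in PR, 1978 RPKM in CR-salt against 1898 RPKM in CR, and 2130 RPKM in SR-salt against 2237 RPKM in SR. The family as a whole therefore changed little between a salt-treated library and its untreated partner, and the sums were largest in the SR pair.

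A few members carried much of that sum, the 10 most abundant holding 49% of the summed mean RPKM. GRMZM2G305839_T01 led by a wide margin with a mean of 302 RPKM, at 305 RPKM in PR-salt and 310 in PR, 186 in CR-salt and 232 in CR, and 368 in SR-salt and 409 in SR. It was highest in the SR pair and lowest in the CR pair, and the levels of the 3 root types did not overlap. Its closest KEGG gene was a sorghum gene that was also the closest for GRMZM2G013581_T01, the third most abundant member, at 72.2 RPKM in PR-salt and 73.9 in PR, 69 in CR-salt and 80.2 in CR, and 118 in SR-salt and 135 in SR. Both were thus highest in SR. The 2 transcripts of GRMZM2G305856 shared the same closest gene, and reads that fit several such copies would have been lost, since only uniquely aligned reads were counted.

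The second most abundant member, GRMZM2G001875_T01, averaged 135 RPKM and ranged from 101 RPKM in PR to 159 RPKM in SR. It was followed after GRMZM2G013581 by GRMZM2G159547_T01 (mean 85.8 RPKM), GRMZM2G098884_T01 (76.9), GRMZM2G127490_T01 (70.0), GRMZM2G047626_T01 (66.2), GRMZM2G171781_T01, listed as MYB30 (54.7), GRMZM2G064630_T01 (53.3) and GRMZM2G017520_T01 (48.6). Below GRMZM2G305839 the ranges over libraries overlapped between neighbours in this order, so the order is not fixed by these data.

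**Figure D1:**
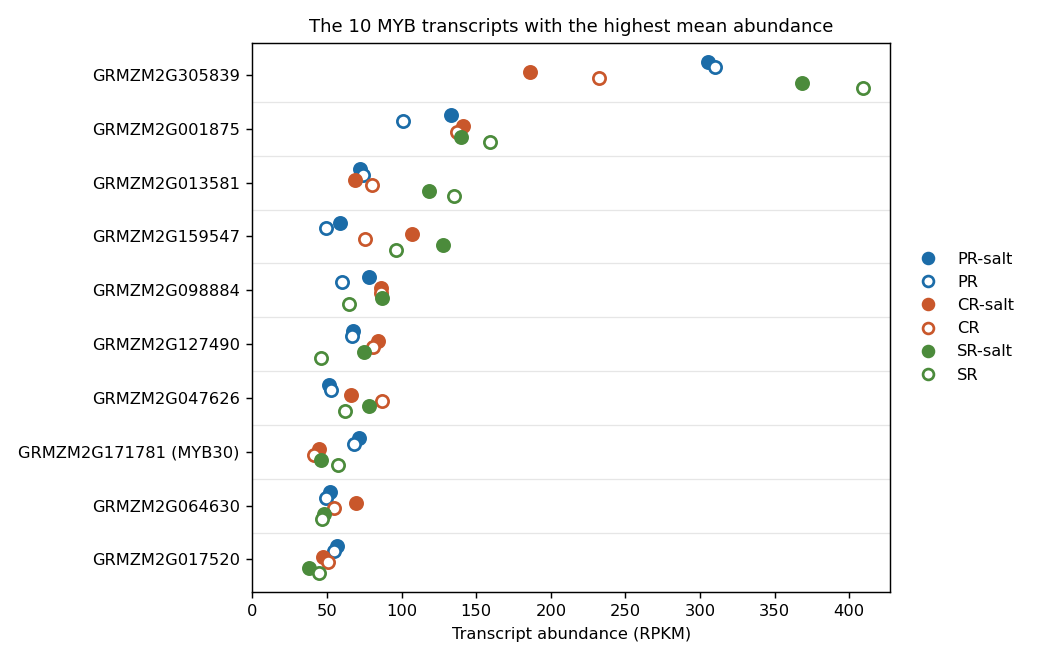
Transcript abundance in RPKM (linear horizontal axis) of the 10 MYB transcripts with the highest mean. Each point is 1 library, filled for salt and open for untreated, with no error bars because each condition had 1 library. GRMZM2G305839 lies between 186 and 409 RPKM, to the right of every other member.

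To learn which MYB transcripts responded to salt, each salt-treated library was set against the untreated library of the same root type with the test of Audic and Claverie on the reads, as the authors had done. Differentially transcribed members were those with a Benjamini-Hochberg false discovery rate (FDR) of at most 0.001 over all transcripts and a ratio of 1 or more on the log2 scale, in either direction. Such a test compares 2 libraries and covers counting error only. No MYB transcript was higher under salt past these thresholds, and 3 were lower, each in a single root type. In PR, 0 of 143 members tested were up-regulated (background 0.0318% of all transcripts tested) and 1 was down-regulated (background 0.487%). In CR, 0 of 151 were up-regulated (background 0.135%) and 0 were down-regulated (background 0.234%). In SR, 0 of 152 were up-regulated (background 0.0814%) and 2 were down-regulated (background 0.311%). With 0 to 2 members called per root type, the counts do not set the family apart from all transcripts. The called transcript with the fewest reads had 17 in the PR pair, 33 in the CR pair and 26 in the SR pair. As many reads were reached by 70 of 143, 51 of 151 and 62 of 152 members tested. Of all transcripts tested, 19121 of 40841, 14758 of 40132 and 16363 of 40528 reached them. The part of depth in the low counts was not tested.

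GRMZM2G006352_T01 was the member called in PR. It had 22 reads in PR-salt against 76 in PR, or 8.42 against 30.3 RPKM, a log2 ratio of -1.85 (95% Clopper-Pearson interval -2.60 to -1.15, Audic-Claverie FDR = 1.30e-06). Its levels were 3.62 RPKM in CR-salt and 5.46 RPKM in CR, and 6.42 RPKM in SR-salt and 13.5 RPKM in SR. PR was therefore the library with by far the most of this transcript, and its salt-treated partner lay within the range of the CR and SR libraries. In SR the log2 ratio was -1.07 (-2.03 to -0.17, FDR = 0.235) and in CR it was -0.59 (-1.98 to 0.72, FDR = 0.798), neither past the thresholds.

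GRMZM2G145444_T01 was called in SR, with 28 reads in SR-salt against 73 in SR, or 12.0 against 32.0 RPKM (log2 ratio -1.41, interval -2.09 to -0.76, Audic-Claverie FDR = 0.000348). It had 20 reads in PR-salt against 41 in PR (8.21 against 17.5 RPKM) and 25 reads in CR-salt against 55 in CR (10.8 against 23 RPKM). All 3 salt-treated libraries were below all 3 untreated libraries. The log2 ratios of -1.09 in PR and -1.09 in CR did not pass the test on reads (FDR = 0.126 and 0.0489).

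GRMZM2G419239_T01 is listed as MYB42, an R2R3-MYB repressor of lignin biosynthesis genes in maize. It had 7 reads in SR-salt against 35 in SR, or 3.52 against 17.9 RPKM (log2 ratio -2.35, interval -3.77 to -1.16, Audic-Claverie FDR = 0.000594). In PR-salt it had 15 reads against 22 in PR (7.19 against 11 RPKM), and in CR-salt 18 reads against 13 in CR (9.08 against 6.35 RPKM). Only the SR pair was separated, and in the CR pair the salt-treated library was the higher. Its relative MYB31 (GRMZM2G050305_T01), another lignin repressor of maize, stayed between 21.1 RPKM in SR-salt and 31.2 RPKM in SR, and its salt log2 ratios were 0.05 in PR, 0.17 in CR and -0.57 in SR (interval -1.16 to 0.01, FDR = 0.466).

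The sums of the dividing cell markers given above were also lower in PR-salt and SR-salt, with cyclin B and MCM2 higher in PR-salt than in PR, and their part in the result was not tested. All 3 calls were lost in an edgeR exact test that assumed a biological coefficient of variation of 0.2 between libraries, with FDR of 0.204 for GRMZM2G006352, 1 for GRMZM2G145444 and 0.763 for MYB42.

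**Figure D2:**
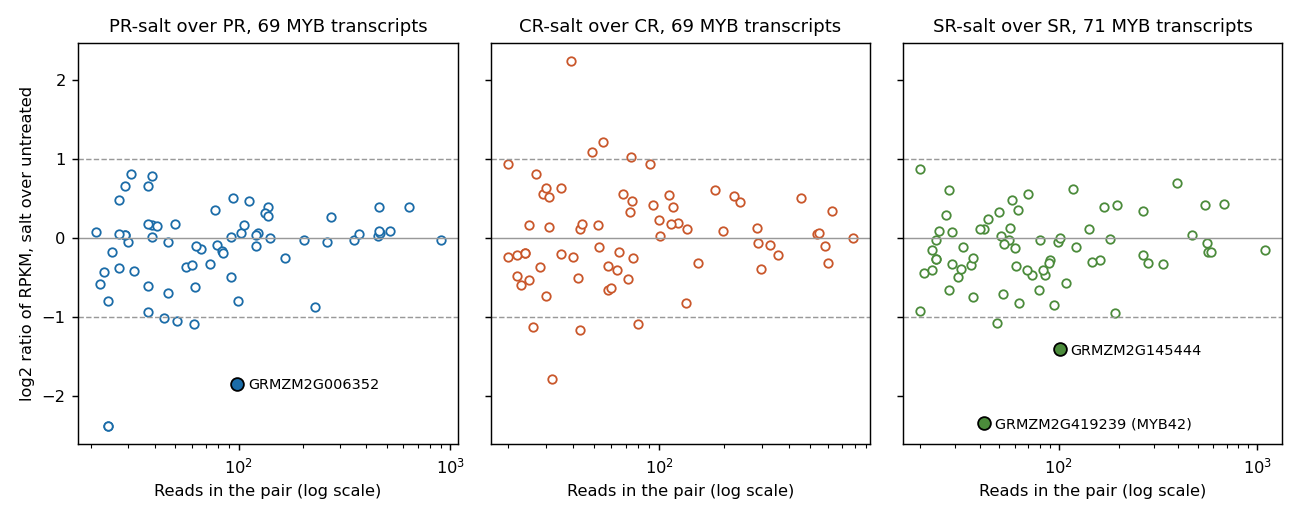
The log2 ratio of RPKM, salt over untreated, of the MYB transcripts with 20 reads or more in both libraries together (69 in PR, 69 in CR and 71 in SR), against the reads in the pair on a log axis. Dashed lines mark a log2 ratio of 1 and -1, and filled points are the 3 members called, all below -1. The lowest open point in PR stands for 2 transcripts with the same reads.

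Across members with at least 20 reads in the pair, ratios centred near 0. The median log2 ratio was -0.03 in PR (69 members), 0.05 in CR (69) and -0.15 in SR (71), against 0.03, 0.02 and 0.03 for all transcripts with as many reads. In SR 47 of the 71 members, or 66.2%, had a negative ratio, compared with 47.6% of all such transcripts. The shares were 50.7% in PR and 47.8% in CR, beside 46.3% and 47.7% of all transcripts. Ratios beyond 2-fold were found for 6 members in PR, all lower under salt, for 8 in CR, 4 in each direction, and for 3 in SR, all lower. These are 8.7%, 11.6% and 4.23% of the members, beside 5.44%, 5.41% and 5.37% of all transcripts with as many reads. Of the 60 members with at least 20 reads in each of the 3 pairs, 14 were lower under salt in all root types (23.3%, against 14.7% of all transcripts) and 9 were higher in all (15%, against 20.7%).

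Among the uncalled members with 20 or more reads in both libraries together, to which the following extremes refer, several had large ratios on few reads. In PR, GRMZM2G084583_T01 and GRMZM2G134279_T01 each had 4 reads in PR-salt against 20 in PR (log2 ratio -2.38, Audic-Claverie FDR = 0.0299), and both would be called at an FDR of 0.05. In CR the highest ratio in this range of reads was that of GRMZM2G054111_T01, with 32 reads in CR-salt against 7 in CR, or 16.8 against 3.57 RPKM (log2 ratio 2.24, interval 1.03 to 3.66, FDR = 0.00213). It would be called at an FDR of 0.05, or at 0.001 with transcripts below 20 reads in both libraries together left out of the adjustment (FDR = 0.000946). This transcript stood at 15.5 RPKM in PR-salt and 16.7 RPKM in PR, and at 6.82 RPKM in SR-salt and 3.74 RPKM in SR, so that CR-salt was at the level of the PR libraries. Myb20 (GRMZM2G150841_T01) had 38 reads in CR-salt against 17 in CR (log2 ratio 1.21, FDR = 0.1), and 5 to 13 reads in the PR and SR libraries. GRMZM2G139688_T01 had 33 reads in CR-salt against 16 in CR (1.09, FDR = 0.234). The lowest uncalled ratios in CR were those of SMH2 (GRMZM2G087817_T02), described below, of AC205326.3_FGT002, with 13 reads in CR-salt against 30 in CR (-1.16, FDR = 0.256), and of GRMZM2G395672_T01, with 8 against 18 (-1.12, FDR = 0.591). With the same minimum of 20 reads, no uncalled member in PR exceeded a log2 ratio of 0.80, reached by the Smh transcript GRMZM2G163291_T02 with 20 reads in PR-salt against 11 in PR, and GRMZM2G405094_T01 and MYB109 (GRMZM2G052606_T01) followed at 0.78 and 0.66. In SR the uncalled extremes at 20 or more reads were 0.87 for GRMZM2G054111 and -1.07 for GRMZM2G006352, with -0.92 for GRMZM2G312419_T01 and 0.62 for GRMZM2G089244_T01. The most abundant member among these extremes was GRMZM2G127490, with 74.9 RPKM in SR-salt against 46.2 RPKM in SR (log2 ratio 0.70, FDR = 0.000245). It met the FDR but not the limit of 2-fold, and its SR library was the lowest of the 6, the others lying between 66.5 and 84 RPKM.

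To find responses shared by the root types, the 6 libraries were fitted together with the edgeR quasi-likelihood test, with root type as covariate, so that the salt effect was judged against its spread between root types (2 residual degrees of freedom). Of 164 members, 72 had the 10 reads in at least 3 libraries that the fit required. At an FDR of 0.05 no member rose (0 of 72, background 0.125%) and 2 fell (background 0.488%), and 3 members had higher and 7 lower levels at an unadjusted p under 0.05 (4.17% and 9.72%, against 4.67% and 7.8% of all transcripts fitted). The first was MYB112 (GRMZM5G803308_T01), which the annotation connects with osmotic stress and hormone responses. MYB112 had 83 reads in PR-salt against 146 in PR, 47 in CR-salt against 86 in CR, and 66 in SR-salt against 125 in SR. These are 34.1 against 62.4 RPKM, 20.3 against 36 RPKM and 28.4 against 54.8 RPKM, and the salt-treated libraries all lay below the untreated ones. The average salt effect was -0.92 on the log2 scale (SE 0.138, edgeR FDR = 0.0171). In the pairs its log2 ratios were -0.87, -0.83 and -0.95 in PR, CR and SR, with Audic-Claverie FDR of 0.000663, 0.0519 and 0.000828, so that in PR and SR only the limit of 2-fold kept it from being called.

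The other was GRMZM2G145444, at -1.24 (SE 0.2, edgeR FDR = 0.0225), which also passed in SR on the reads. GRMZM2G006352 followed at -1.38 (SE 0.281, edgeR FDR = 0.0586) and did not pass, and MYB42 was at -0.83 (SE 0.431, FDR = 0.473). Both calls were lost without the CR pair or without the SR pair, although the effects moved little. Without the CR pair MYB112 was at -0.94 (FDR = 0.0508) and GRMZM2G145444 at -1.30 (FDR = 0.0755). Without the SR pair they were at -0.88 (FDR = 0.0716) and -1.12 (FDR = 0.129). Without the PR pair both calls remained, at -0.92 (FDR = 0.000334) and -1.285 (FDR = 8.13e-05), and GRMZM2G054111 and GRMZM2G159547 were added, both higher under salt. DESeq2 called neither, with an FDR of 0.165 for MYB112 and an unadjusted p of 0.00209 for GRMZM2G145444, for which it gave no FDR. The dividing cell markers had a median average effect of -0.31 in the same fit, with 12 of 13 below 0 and none called, and their part in the fall of MYB112 and GRMZM2G145444 was not tested.

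MYB112 and GRMZM2G145444 had the same closest KEGG gene of maize, shared with GRMZM2G078820_T01 and GRMZM2G167725_T04, a set put together after the values had been seen. GRMZM2G078820 was lower under salt in each pair but by less, with 16.2 RPKM in PR-salt against 18.1 in PR, 12.4 in CR-salt against 17.7 in CR, and 15.3 in SR-salt against 20.3 in SR. GRMZM2G167725_T04, a model of 243 bases with 7 to 16 reads per library, had ratios close to 0 (0.13, 0.14 and 0.07 on the log2 scale). The 4 transcripts together took 151 reads in PR-salt against 237 in PR, 117 in CR-salt against 199 in CR, and 145 in SR-salt against 259 in SR. Reads that fit several of these transcripts would have been lost, since only uniquely aligned reads were counted. The sum was lower under salt in every pair. MYB112 and GRMZM2G145444, whose falls had led to the set, held most of its reads, so the sum adds no support of its own.

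**Figure D3:**
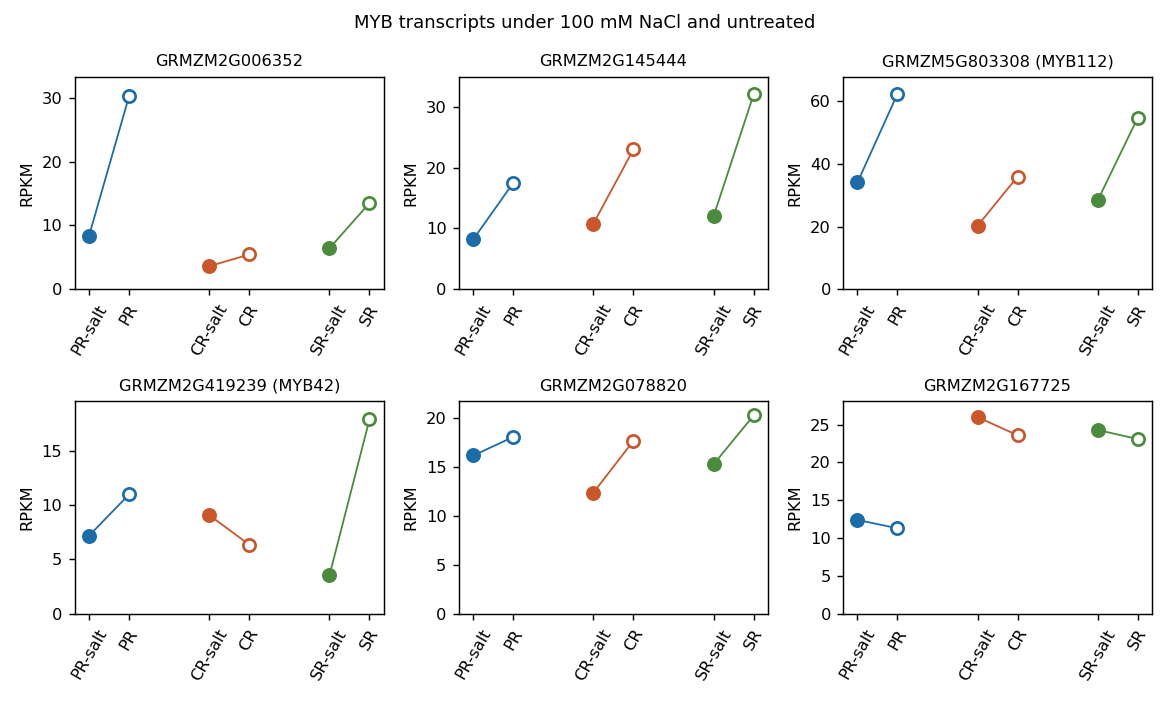
Transcript abundance in RPKM (vertical axis, from 0) of the 3 members called on the reads, of MYB112 and of the 2 other transcripts with its closest KEGG gene. Each point is 1 library, filled for salt and open for untreated, and a line joins the pair of a root type. MYB112 and GRMZM2G145444 are lower in all 3 salt-treated libraries than in any untreated one, and GRMZM2G006352 is highest in PR, at 30.3 RPKM.

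Members annotated with a response to osmotic stress were not called in any pair. There were 16 of them, and of those with at least 20 reads 6 of 7 were lower in PR, 3 of 5 in CR and 5 of 6 in SR, with median log2 ratios of -0.80, -0.22 and -0.21. Of 40 members annotated with a response to hormone stimulus, 13 of 19 were lower in PR, 10 of 16 in CR and 15 of 20 in SR (medians -0.38, -0.21 and -0.29), and none was called. Every osmotic stress member counted here at 20 or more reads also carried the hormone term, so that the sets overlap and their results are not separate. The median in PR over all members with as many reads was -0.03, so that the annotated members lay lower, on few transcripts.

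The Smh genes, whose products bind telomeric repeats, were represented by 8 member transcripts of 6 genes, 5 of which had 20 or more reads in every pair. None was called for salt or root type. SMH1 (GRMZM2G136887_T02) had 72 reads in PR-salt and 69 in PR, 69 in CR-salt and 66 in CR, and 66 in SR-salt and 80 in SR. smh3 (GRMZM2G023667_T01) had 79 and 58, 64 and 58, and 74 and 67 reads in the same libraries. The average salt effect was -0.10 (SE 0.158) for SMH1 and 0.20 (SE 0.155) for smh3, so both of these transcripts were even across the 6 libraries as far as the depth can show. Of the less abundant Smh transcripts, GRMZM2G163291_T02 had a log2 ratio of 0.80 in PR, while its CR and SR ratios were -0.49 and -0.66. The interval of each included 0. The lowest ratio was that of SMH2 (GRMZM2G087817_T02), with 7 reads in CR-salt against 25 in CR (log2 ratio -1.79, interval -3.24 to -0.54, Audic-Claverie FDR = 0.0658), which was not called.

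Whether the salt ratio itself differed between root types was tested exactly, by conditioning on the read totals of both pairs (a noncentral hypergeometric test over 4 libraries). No member passed at an FDR of 0.001 with a difference of 1 or more on the log2 scale. The count was 0 of 88 members for PR against CR (background 0.684%), 0 of 87 for PR against SR (background 0.726%) and 0 of 84 for CR against SR (background 0.195%), with 13, 7 and 10 members at an unadjusted p under 0.05 (14.8%, 8.05% and 11.9%, against 11.4%, 11.2% and 9.09% of all transcripts tested). The smallest FDR were 0.0105 for MYB139 (GRMZM2G087955_T01) and 0.0273 for GRMZM2G054111 in PR against CR, 0.0387 for GRMZM2G127490 in PR against SR, and 0.0283 for MYB42 in CR against SR. MYB139 had 18 reads in PR-salt against 28 in PR, 16 in CR-salt against 2 in CR, and 13 in SR-salt against 18 in SR. Its low CR library thus set it apart, and not its salt-treated libraries. For MYB42 the call in SR and its absence in CR are therefore not shown, at this threshold, to be different responses.

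The root types were compared in the same way. Among the untreated libraries, 4 of 144 members were higher in PR than in CR (background 1.29%) and 1 was lower (background 0.772%). Of 141 members, 0 were higher in PR than in SR (background 0.823%) and 1 was lower (background 0.737%), and of 149 members 0 were higher (background 0.144%) and 0 lower (background 0.38%) in CR than in SR. Among members with at least 20 reads, 20.5% differed more than 2-fold between PR and CR, compared with 11% of all transcripts, 13.5% between PR and SR compared with 9.21%, and 10.1% between CR and SR compared with 6.07%.

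GRMZM2G006352, the transcript that fell under salt in PR, was also the one most firmly higher in PR, with 76 reads in PR against 14 in CR (log2 ratio 2.47, interval 1.64 to 3.41, Audic-Claverie FDR = 3.84e-10) and 33 in SR. This contrast shares the PR library with the salt comparison, so that the pair of results rests in part on the same 76 reads. MYB139 had 28 reads in PR against 2 in CR (log2 ratio 3.84, interval 1.85 to 6.95, FDR = 1.47e-05) but 18 in SR. GRMZM2G134279 had 20 reads in PR against 1 in CR (4.35, interval 1.71 to 9.73, FDR = 0.000297) and 2 in SR, and 1 to 5 reads in the other libraries. GRMZM2G054111 had 32 reads in PR against 7 in CR (2.22, FDR = 0.000952), a call lost by Fisher's exact test (FDR = 0.00157) and under TMM or DESeq2 scaling (0.00108 and 0.00105). In the reverse direction, GRMZM2G151205_T01 had 4 reads in PR against 37 in CR (log2 ratio -3.18, interval -5.13 to -1.70, FDR = 3.76e-06) and 32 in SR (-3.04, FDR = 3.67e-05). None of these calls held at an FDR of 0.001 in edgeR's exact test with an assumed coefficient of variation of 0.2. For PR against CR that test gave an FDR of 0.00321 for GRMZM2G006352, 0.00539 for GRMZM2G151205 and 0.00678 for MYB139. It gave 0.0234 for GRMZM2G134279 and 0.15 for GRMZM2G054111. For GRMZM2G151205 in PR against SR the FDR was 0.0252.

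The edgeR fit of all 6 libraries compared the root types with the salt-treated and the untreated library of each as its samples. Of 72 members 4 were higher in PR than in the mean of CR and SR (background 3.79%) and 8 were lower (background 3.22%), with 9 higher and 17 lower at an unadjusted p under 0.05 (12.5% and 23.6%, against 9.36% and 8.69% of all transcripts fitted). The number higher is near the background share, and the number lower is 8 of 72.

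GRMZM2G151205 was the most strongly PR-depleted member, at 0.43 RPKM in PR-salt and 1.79 in PR (1 and 4 reads), against 10.4 in CR-salt, 16.2 in CR, 9.01 in SR-salt and 14.7 in SR (log2 difference -3.45, SE 0.437, edgeR FDR = 0.000666). MYB164 (GRMZM2G110135_T01) followed at 1.99 and 2.07 RPKM in PR-salt and PR, against 16.7 and 11.3 in CR-salt and CR and 14.2 and 10.2 in SR-salt and SR (-2.65, SE 0.354, FDR = 0.000942). In both, the PR libraries and the 4 others were far apart. GRMZM2G325907_T01 was at 5.33 and 5.18 RPKM in PR-salt and PR against 10.6 to 19.8 RPKM in the other libraries (-1.51, SE 0.262, FDR = 0.00502). GRMZM2G102790_T01 (-1.05, FDR = 0.0367) and GRMZM2G167829_T01 (-0.89, FDR = 0.0225) were also lower in both PR libraries than in any other. GRMZM2G167829 and GRMZM2G151205 had the same closest KEGG gene of sorghum, and both were lower in PR. Reads that fit both would have been lost, since only uniquely aligned reads were counted.

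The purple plant1 locus pl1 (GRMZM2G701063_T01), an R2R3-MYB activator of anthocyanin genes in the vegetative tissues of maize, was lower in PR as well. Its levels were 29.2 RPKM in PR-salt and 28.1 in PR, against 64.8 in CR-salt, 47.5 in CR, 54.1 in SR-salt and 40.5 in SR (log2 difference -0.83, SE 0.162, edgeR FDR = 0.0092). The PR libraries did not overlap with the others. GRMZM2G159547, among the 10 most abundant members, was at 58.9 and 49.2 RPKM in PR-salt and PR against 75.4 to 128 RPKM elsewhere (-0.89, SE 0.117, FDR = 0.00084), and the last of the 8 was GRMZM2G003406_T01 (-0.82, FDR = 0.00911).

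Higher in PR were GRMZM2G006352 (log2 difference 1.46, SE 0.275, edgeR FDR = 0.00767), GRMZM2G069325_T02 (1.06, SE 0.194, FDR = 0.00687), GRMZM2G048136_T02 (1.02, SE 0.258, FDR = 0.0367) and MYB30 (0.57, SE 0.126, FDR = 0.0189). GRMZM2G069325 was at 28.1 RPKM in PR-salt and 30.2 in PR, against 12.5 to 15.8 RPKM in the CR and SR libraries. MYB30 was at 71.2 and 68.1 RPKM in PR-salt and PR, against 40.9 to 57.6 RPKM. Both were cleanly separated, whereas the other 2 overlapped: GRMZM2G048136 had 21.6 RPKM in PR beside 22.8 RPKM in SR, and GRMZM2G006352 had 8.42 RPKM in PR-salt beside 13.5 RPKM in SR. With DESeq2 3 of the 12 remained, namely GRMZM2G151205, MYB164 and GRMZM2G159547. Of the root uptake markers, nicotianamine synthase separated the root types, with summed levels of 18.9 and 24.3 RPKM in PR-salt and PR, against 3317 and 6004 in CR-salt and CR and 1981 and 2709 in SR-salt and SR. Summed nitrate transporters did not separate the untreated root types, with 86.5 RPKM in PR against 105 RPKM in CR and 86 RPKM in SR. Under salt they were lower in PR-salt, at 57.1 RPKM against 173 RPKM in CR-salt and 192 RPKM in SR-salt. The part of these markers in the differences between MYB transcripts was not tested.

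**Figure D4:**
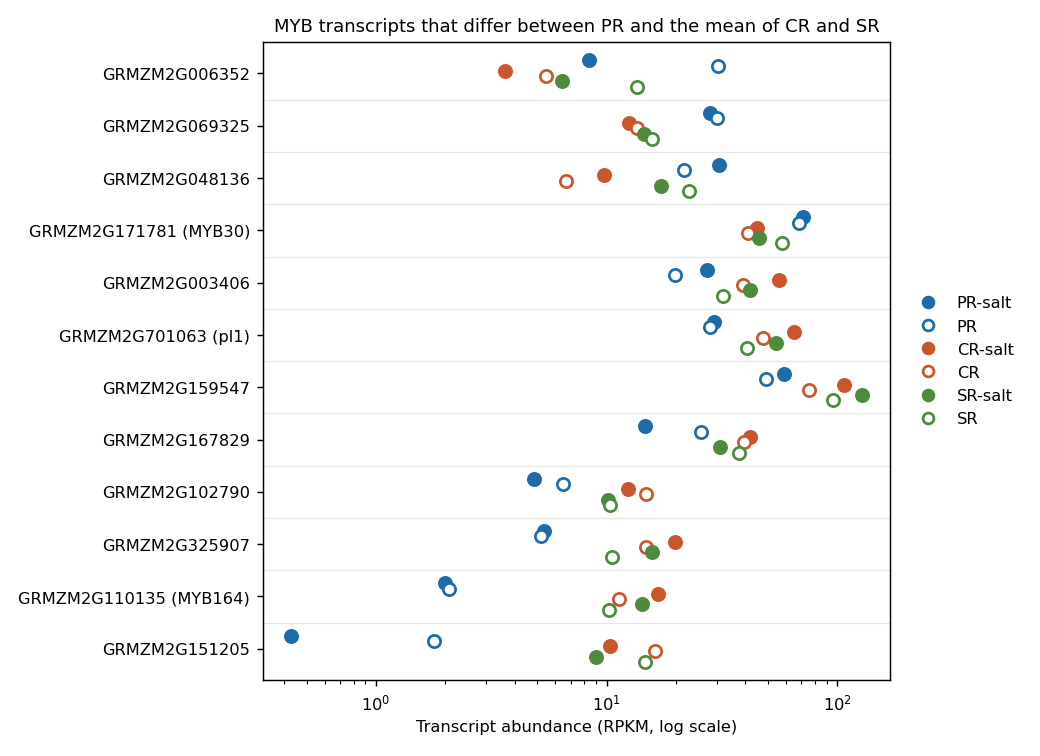
Transcript abundance in RPKM (log horizontal axis) of the 12 MYB transcripts that passed the edgeR test of PR against the mean of CR and SR, ordered by the log2 difference. Each point is 1 library, filled for salt and open for untreated. In the lower 8 members both PR libraries lie to the left of all CR and SR libraries, down to 0.43 and 1.79 RPKM for GRMZM2G151205.

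Of the classical MYB loci of maize, pl1, MYB31 and MYB42 had the levels given above, and 3 others were scarcely transcribed in these root tips. The colorless1 locus c1 (GRMZM2G005066), the anthocyanin activator of the kernel, had 0 to 2 reads per library. Rough sheath2 (rs2, GRMZM2G403620), a repressor of knotted1-like homeobox genes in maize leaves, also had 0 to 2 reads. MYB-IF35 (GRMZM2G051256) had 5 reads in PR-salt and 1 each in CR-salt and SR-salt, against 0 in PR, CR and SR. The levels of c1, rs2 and MYB-IF35 are at or near the floor of 3 reads, and no ratio is given for them.

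Enzymes of pathways that MYB proteins are known to regulate were counted in the same tests. Of 137 transcripts for lignin and general phenylpropanoid enzymes, 122 were tested in PR and 5 were down-regulated (background 0.487%). In CR 0 of 120 were down-regulated (background 0.234%) and in SR 1 of 120 (background 0.311%). None was up-regulated, and 2 of 57 fell in the edgeR fit (background 0.488%). Of 60 transcripts for flavonoid and anthocyanin enzymes, 55 were tested in PR and 2 were down-regulated (background 0.487%). In CR 4 of 48 were up-regulated (background 0.135%) and in SR 1 of 49 (background 0.0814%). None of 24 passed the edgeR fit for salt. Between untreated root types, 12 of 51 flavonoid transcripts were higher in PR than in CR (background 1.29%). Against SR, 8 of 53 were higher in PR (background 0.823%), and 0 were lower in either comparison. Over flavonoid transcripts with at least 20 reads the median log2 ratios were 1.17 and 0.86. Of the lignin list, 14 of 125 were higher (background 1.29%) and 3 lower (background 0.772%) in PR than in CR. Against SR, 7 of 122 were higher (background 0.823%) and 4 lower (background 0.737%) in PR. Leucoanthocyanidin dioxygenase, a late enzyme of anthocyanin synthesis, summed to 587 and 604 RPKM in PR-salt and PR, against 77.7 and 44.2 in CR-salt and CR and 58.3 and 61.4 in SR-salt and SR. Naringenin 3-dioxygenase was also far higher in PR, at 272 RPKM against 19.4 in CR and 21.5 in SR. Anthocyanidin reductase was not, at 57.5 RPKM in PR against 52.7 in CR and 59.4 in SR. Separation was also smaller for dihydroflavonol 4-reductase, at 173 RPKM in PR against 55.6 in CR and 127 in SR. Flavonol synthase had 85.6 RPKM in PR against 57.9 in CR and 75.7 in SR. The PR tips thus had more leucoanthocyanidin dioxygenase transcript and less of pl1 than the other root types.

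Other transcription factor families also had few calls for salt. Of 19 other MYB-repeat transcripts, 17 were annotated as the clock factor LATE ELONGATED HYPOCOTYL and 2 as the splicing factor CDC5. In CR 1 of the 19 tested was down-regulated (background 0.234%), and none was called in PR or SR. Of 141 ethylene-responsive element binding factors, 122 were tested in PR, where 1 was up-regulated (background 0.0318%) and 1 down-regulated (background 0.487%). Down-regulated were 2 of 119 in CR (background 0.234%) and 2 of 122 in SR (background 0.311%). Of 102 WRKY transcripts 1 of the 92 tested was down-regulated in SR (background 0.311%). Of 70 homeobox-leucine zipper transcripts none was called in any salt comparison, with 60 tested in PR, 61 in CR and 65 in SR. No difference between these families and the MYB transcripts was tested.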

How the data were processed

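The authors filtered the reads, aligned them to the genome of the line B73 (SOAP), assigned them to genes (BLAST) and deposited 1 table with the count of uniquely aligned reads, the RPKM and the percent of each transcript covered by reads. The deposited count is raw, the deposited RPKM follows from it and the transcript length, and the deposited percent of coverage was not used. The cultivar sequenced was not B73, and strand use in counting is not given in the sources used here. The table left 0 columns of sample values without a sample.

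The 6 libraries had a median of 2549512 counted reads, with a ratio of 1.07 between the deepest and the shallowest. Members, lists and tests were chosen with earlier results of these data known. Pairs of libraries were compared with the authors' test (Audic and Claverie, Benjamini-Hochberg FDR at most 0.001, absolute log2 ratio at least 1, an RPKM of 0 set to 0.01) over transcripts with at least 1 read. The doubled smaller tail was used. Intervals are exact 95% Clopper-Pearson intervals and, like the floor of 3 reads, cover counting error only. Salt ratios of 2 root types were compared with an exact conditional test on transcripts with at least 20 reads in 4 libraries, after 1 read had been added for the size of the difference. The model over all libraries used edgeR 4.0.16 (quasi-likelihood, TMM, at least 10 reads in at least 3 libraries, FDR 0.05), with DESeq2 1.42.0 as an alternative, R 4.3.3 and Python 3.11.15. The procedures were tested on simulated data.

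The genes named are the members called for salt, the 10 most abundant, the called members of each root type comparison, the 3 highest and 3 lowest uncalled salt ratios per root type on at least 20 reads, up to 5 members in each direction of PR against CR and SR, and classical loci in the reference gene table (assembly Zm-B73-REFERENCE-NAM-5.0), which held 93 of the 164 transcripts under 85 gene identifiers. GRMZM2G003406, GRMZM2G078820, GRMZM2G167725, GRMZM2G305856 and the Smh transcripts other than SMH2 and GRMZM2G163291 fall outside this rule and were named after their values had been seen. No coordinates or sequences are given, because the reference table is of another assembly. Alternatives were Fisher's exact test, other scalings, an FDR of 0.05, a minimum of reads, 1 read added, reads summed to genes, an assumed coefficient of variation of 0.2, and leaving out the pair of each root type.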

Additional observations from a re-analysis of the deposited data

How the results depend on the processing

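Counts of MYB transcripts called on reads were 1 for PR-salt against PR, 0 for CR-salt against CR and 2 for SR-salt against SR. At an FDR of 0.05 they were 3, 4 (3 higher and 1 lower) and 2, and with at least 20 reads in the pair CR-salt against CR had 1, which was higher. Between untreated root types the counts were 5 for PR against CR, 1 for PR against SR and 0 for CR against SR. They became 12, 7 and 3 at an FDR of 0.05, and with at least 20 reads PR against SR had 3. With an edgeR exact test and an assumed coefficient of variation of 0.2 the count at an FDR of 0.001 was 0 in each of these comparisons. The edgeR count for salt was 2. It was 0 with DESeq2, 4 without the PR libraries (2 in each direction), 0 without the CR libraries and 0 without the SR libraries. The edgeR count for PR against CR and SR was 12. It was 3 with DESeq2 and 18 without the filter on low counts. Salt ratios differed between PR and CR for 2 members and between CR and SR for 1 at an FDR of 0.05, against 0 and 0 at 0.001. Of 105 recomputed ratios of single members none changed sign, and 3, the called salt ratios, lost their call, all with the assumed coefficient of variation. The cause of these changes was not tested, apart from the smaller number of samples when a root type is left out.

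The labels carry no replicate numbers, and the edgeR salt test was paired by root type, with 3 pairs. Each condition had 1 library, so neither test measures the spread between plants given the same treatment, and the edgeR fit treats differences in response between root types as error. Under TMM scaling the log2 ratios of salt over untreated shift by 0.03 in PR, 0.03 in CR and 0.04 in SR. Of the 164 members, 81 had fewer than 10 reads in every library, for which only large differences can be seen. Transcripts with a shared closest gene were counted on unique alignments only.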
